A study of Homo sapiens with 4 samples.

Results

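MALAT1, NEAT1, NORAD, KCNQ1OT1, PVT1 and TUG1 are genes studied as long noncoding RNAs, long transcripts described by functions of the RNA itself, although RefSeq classes TUG1 as protein coding. Their N6-methyladenosine (m6A) peaks were read from the MeRIP-seq peak lists of H1975 cells, an established human lung adenocarcinoma line. A peak was assigned to an RNA when its summit, the base with the highest read coverage, lay in a window of hg19 coordinates around the gene. By this rule 16 of 21693 listed peaks belonged to the 6 RNAs, 8 of 9441 in the control and 8 of 12252 after METTL3 knockdown. The rule used position alone, and no peak value entered it, but the RNAs and windows were chosen with earlier results of these data known.

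H1975 cells carried either a control shRNA (NC-sh) or an shRNA against METTL3 (METTL3-sh), both delivered by lentivirus, and the labels give 48 h for all samples. The METTL3 shRNA is the one designed sequence on which the comparison rests, and it is shown because it defines the knockdown group, with no base capitalised:
METTL3 shRNA: gctgcacttcagacgaattat
Each condition was represented by 1 Input library, the fragmented RNA before precipitation, and 1 MeRIP library, the fragments recovered with an antibody against m6A. Single libraries leave no spread between replicates, so no difference below has a test, and every interval covers counting error only. The series' design text speaks of 3 replicates, while the labels list a single library of each kind, and whether a library pools several samples is not given in the sources used here. The intervals hold for the libraries as deposited. The level of METTL3 RNA was not analysed here, so the knockdown itself was not checked. The name of every peak in both lists, 9441 and 12252 of them, begins with H1299, the name of another lung cancer line, and 0 names hold H1975. The results are given under the labelled line.

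m6A is placed on nuclear RNA by a complex whose catalytic subunit is METTL3, and it is read by proteins that affect splicing, export, translation and decay. In MeRIP-seq a methylated stretch appears as a peak, a place where antibody-bound fragments pile up above the level that Input predicts. MALAT1, an abundant RNA of nuclear speckles, is among the RNAs best known to carry m6A. NEAT1 is the scaffold of paraspeckles, NORAD holds PUMILIO proteins in the cytoplasm, KCNQ1OT1 silences neighbouring imprinted genes in cis, PVT1 is the neighbour of the oncogene MYC and is often gained with it in tumours, and TUG1 is a widely expressed RNA studied for its part in gene regulation.

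The values of a peak are its fold enrichment, the coverage at the summit plus 1 divided by the coverage expected from Input plus 1, and its summit reads, the number of overlapping fragments at the summit. Both lists start at a fold enrichment of 6, so an RNA with no peak is one without a listed peak and not one shown to lack m6A. The median listed peak had 169 summit reads in NC-sh against 132 in METTL3-sh, with median fold enrichments of 10.2 and 9.79. The 8 peaks of the long noncoding RNAs had medians of 1123 and 1028 reads and of 16.2 and 15.5 in fold enrichment. All 8 in NC-sh and 7 of 8 in METTL3-sh reached a fold enrichment of 12, which 39.1% and 37.3% of all listed peaks reached. The depth of the libraries is unknown, because the lists hold peaks and no totals.

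The windows were chr11:65265000-65274000 for MALAT1, chr11:65190000-65213000 for NEAT1, chr20:34633000-34639000 for NORAD, chr11:2629000-2722000 for KCNQ1OT1, chr8:128806000-129114000 for PVT1 and chr22:31365000-31376000 for TUG1. The peaks were unevenly spread over these 6 RNAs. TUG1 carried 5 peaks in NC-sh against 4 in METTL3-sh. MALAT1 and PVT1 carried 1 in each condition, and KCNQ1OT1 carried 1 in NC-sh against 2 in METTL3-sh. NEAT1 and NORAD carried 0 in both.

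**Figure D1:**
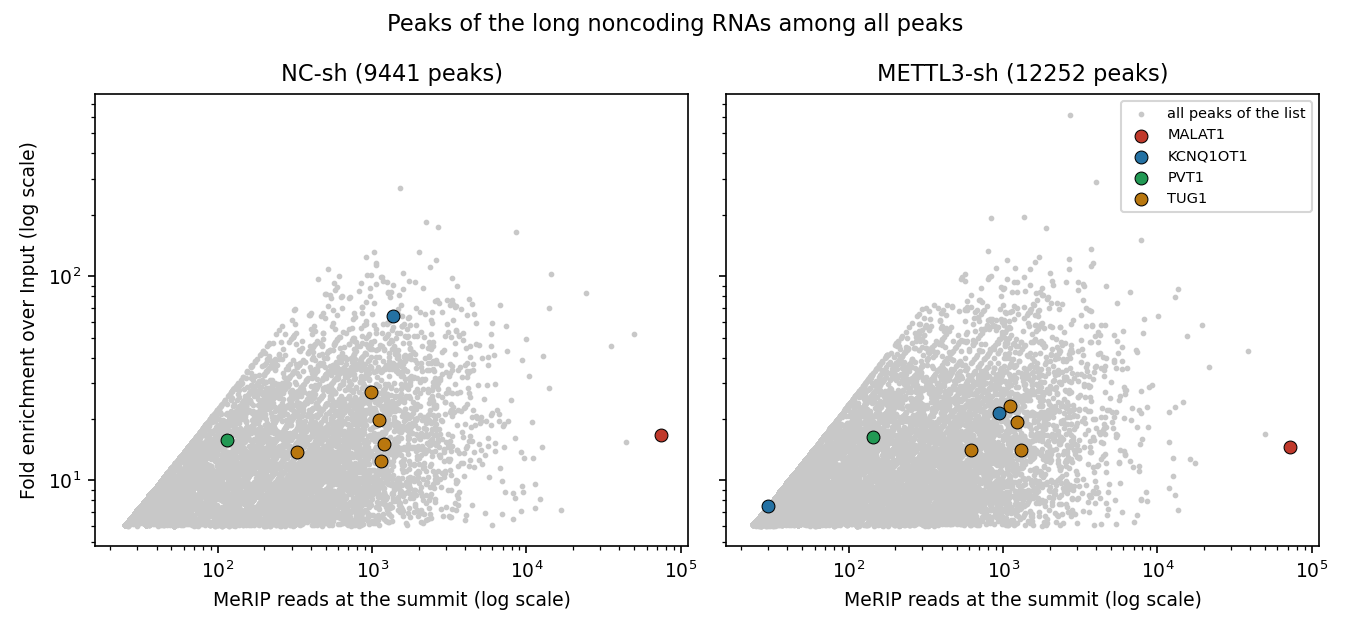
Summit reads (horizontal, log axis) against fold enrichment (vertical, log axis) for every listed peak in grey and for the peaks of the long noncoding RNAs in colour, with 1 panel for each condition. MALAT1 lies furthest to the right with 74581 and 72046 reads at a moderate enrichment, and the paired KCNQ1OT1 peak lies at a fold enrichment of 63.6 in NC-sh and at 21.5 in METTL3-sh.

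The single MALAT1 peak had more summit reads than any other peak in either condition. In NC-sh it covered chr11:65267561-65268023, 463 bp, and held 74581 reads at its summit (95% Poisson interval 74047 to 75118). In METTL3-sh it covered chr11:65267577-65267979, 403 bp, with 72046 reads (71521 to 72574). The next peak in each list held 50077 and 50073 reads, so MALAT1 stood 1.49 and 1.44 times above it and took 1.61% and 1.37% of all summit reads listed.

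The same peak was first in both lists by the coverage expected from Input, 1468 in NC-sh against 1789 in METTL3-sh, which were 2871 and 3044 times the lowest expectation of each list. Its fold enrichment was therefore moderate, 16.6 and 14.6, with 77.2% and 72.7% of the listed peaks below it. The significance score, −log10 q, was 19831 and 19930, second and first in the lists. MALAT1 was thus extreme in coverage and score and not in enrichment.

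Between conditions the fold enrichment of MALAT1 differed by −0.18 on the log2 scale (METTL3-sh over NC-sh). Its MeRIP coverage and its Input expectation, each plus 1, were 0.10 and 0.28 higher on that scale. Over all pairs of peaks the medians of these 2 differences were 0.28 and 0.11. The ratio of MALAT1 summit reads, not corrected for depth, was 0.966 (0.956 to 0.976), and that of the scaled coverage 1.07 (1.06 to 1.08). Coverage and reads differ in direction because 1 read stands for a coverage of 0.327 in NC-sh but 0.364 in METTL3-sh, a log2 difference of 0.15. The lowest Input expectation was also 1.15 times higher in METTL3-sh. Library depth is unknown, so neither the ratio of reads nor that of scaled coverage is known to be corrected for depth between conditions. In the RefSeq annotation of GRCh38.p14, MALAT1 overlaps the antisense RNA TALAM1 and the small processed RNA MASCRNA. The lists carry no strand, so coverage of MALAT1 and TALAM1 cannot be told apart.

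NEAT1 lies on chromosome 11 near MALAT1 and had no listed peak in its 23 kb window. On the side away from MALAT1 the nearest listed peak lay 9.8 kb before the window in NC-sh, with 474 reads at a fold enrichment of 6.05, and 45.8 kb before it in METTL3-sh, with 139 reads at 10.3. On the MALAT1 side the nearest peak lay 10.5 kb past the end of the NEAT1 window in both. In NC-sh it covered chr11:65223456-65224405 and had 1590 summit reads and a fold enrichment of 86.9, rank 34 of the list. In METTL3-sh it covered chr11:65223457-65224457 with 1589 reads and a fold enrichment of 72.3, rank 71. A smaller peak followed in both conditions, with 185 reads and a fold enrichment of 30.8 in NC-sh and 132 reads and 18.8 in METTL3-sh. RefSeq places FAUP4, ENEMAL and LINC02736 between NEAT1 and MALAT1, and the transcript behind these peaks cannot be named from the lists.

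**Figure D2:**
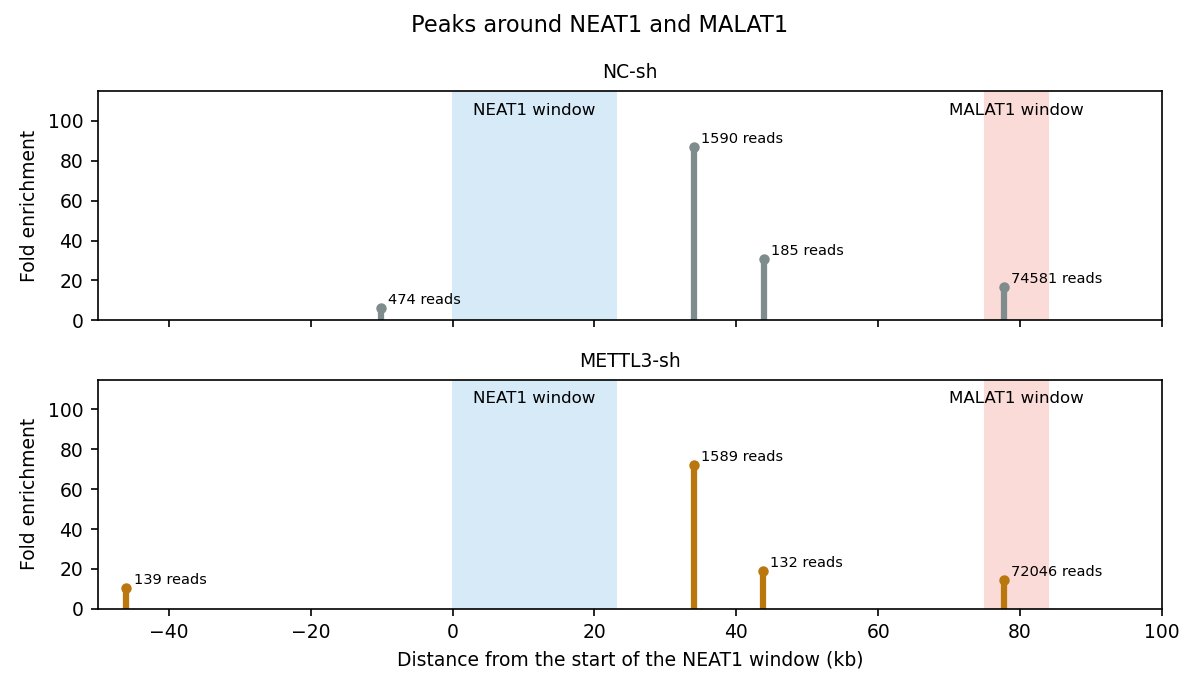
Fold enrichment (vertical) of each listed peak by distance from the start of the NEAT1 window in kb (horizontal), with the NEAT1 window in blue, the MALAT1 window in red and the summit reads written beside each peak. The NEAT1 window is empty in both conditions, the highest enrichments, 86.9 and 72.3, lie between the windows, and MALAT1 has the most reads.

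NORAD also had no listed peak in either condition, in a window of 6 kb inside a stretch of 261.6 kb without one. The peak names carry a running number in order of position, and numbers are missing, 6004 in NC-sh against 8336 in METTL3-sh. Around NORAD 3 numbers were missing in NC-sh against 4 in METTL3-sh. The gap that holds the NEAT1 window lacked 2 numbers over 43.3 kb in NC-sh and 4 over 79.3 kb in METTL3-sh. Peaks with these numbers are not in the lists, and whether any of them lay in NEAT1 or NORAD was not tested.

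KCNQ1OT1 had the largest difference in fold enrichment between conditions among the 6 pairs of peaks found in the windows. Its peak covered chr11:2656313-2656769 in NC-sh, against chr11:2656316-2656763 in METTL3-sh, with summits 5 bp apart. The fold enrichment was 63.6 in NC-sh, above 99.0% of that list, and 21.5 in METTL3-sh, above 86.1%. Summit reads were 1358 (1287 to 1432) and 942 (883 to 1004), a ratio of 0.694 (0.638 to 0.754), or 0.771 (0.709 to 0.837) on the scaled coverage of the peak caller.

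The log2 difference of the KCNQ1OT1 fold enrichment was −1.57, and 0.860% of all pairs of peaks had a lower value. MeRIP coverage differed by −0.37 and the Input expectation by 1.19. The expectation was 6.0 in NC-sh against 15.0 in METTL3-sh, and 5.43% of pairs had a larger increase of it. More of the difference in enrichment therefore lay in the Input term than in the MeRIP term, and whether the RNA was more abundant in METTL3-sh was not tested. Read as counts of Input fragments, these expectations have 95% Poisson intervals of 2.20 to 13.1 and 8.40 to 24.7, which overlap. Their ratio was 2.5 with an exact interval of 0.917 to 7.86, not corrected for depth. With this few Input fragments the size of the difference in enrichment is imprecise.

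A second KCNQ1OT1 peak was listed in METTL3-sh alone, at chr11:2674228-2674427. It held 30 reads (20 to 43) at a fold enrichment of 7.5 and a −log10 q of 7.60, with an Input expectation of 0.589, beside a lowest value of 0.588 in the list. It was the weakest of the 16 peaks, and a difference from NC-sh was not detectable from a list that starts at a fixed enrichment. KCNQ1OT1 is transcribed from within KCNQ1, a potassium channel gene, on the opposite strand. Without strand, coverage of the RNA and of the KCNQ1 pre-mRNA cannot be told apart.

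The PVT1 window spans 308 kb and held 1 modest peak in each condition, with summits 40743 and 40712 bp from its start. It covered chr8:128846578-128846876 in NC-sh with 114 summit reads (94 to 137) and a fold enrichment of 15.7. In METTL3-sh it covered chr8:128846535-128846875 with 143 reads (121 to 168) and a fold enrichment of 16.4. The ratio of reads was 1.25 with an interval of 0.981 to 1.60, which includes 1. On the scaled coverage of the peak caller it was 1.39 with an interval of 1.09 to 1.78, which does not include 1. Neither ratio is known to be corrected for depth between conditions, so whether PVT1 differed in reads is not settled. MeRIP coverage and Input expectation were both higher in METTL3-sh, by 0.47 and 0.41 on the log2 scale. Over all pairs of peaks their medians were also higher, by 0.28 and 0.11, with quartiles of 0.013 and 0.56 for MeRIP coverage. The PVT1 fold enrichment differed by 0.059. The −log10 q was 36.0 and 47.4, the lowest in NC-sh among the 8 peaks.

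TUG1 was the most densely marked of the 6 RNAs. Its peaks covered 3433 bp in NC-sh against 3840 bp in METTL3-sh, 31.2% and 34.9% of its 11 kb window. Consecutive summits lay 755 to 3994 bp apart in the control and 1278 to 3977 bp apart after knockdown. The distance from a TUG1 summit to the nearest listed summit was 755 to 3392 bp in NC-sh and 1278 to 3411 bp in METTL3-sh. Across all listed peaks the median of that distance was 17934 and 13083.5 bp.

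The first TUG1 peak, chr22:31367143-31367701 in NC-sh, had 1113 summit reads against 1114 in METTL3-sh, a ratio of 1.11 (1.02 to 1.21) on the scaled coverage. Its log2 difference in MeRIP coverage was 0.15, below the median of 0.28 over all pairs. Its fold enrichment was 19.9 and 23.2, a log2 difference of 0.22, the largest increase among the 1-to-1 pairs, which leave out the third summit. The second peak, chr22:31371159-31371826 in NC-sh, against chr22:31371194-31371948 in METTL3-sh, differed in the other direction. It held 988 reads (927 to 1052) and then 622 (574 to 673), a ratio of 0.630 (0.569 to 0.696), or 0.699 (0.633 to 0.773) on the scaled coverage.

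The fold enrichment of the second peak was 27 in NC-sh against 14.0 in METTL3-sh, a log2 difference of −0.94, and 5.57% of all pairs had a lower value. Here MeRIP coverage differed by −0.51 and the Input expectation by 0.43, and both differences lowered the fold enrichment of the second peak. Read counts on either side of it were not lower in METTL3-sh: 1113 and 1114 at the first peak, and a METTL3-sh to NC-sh ratio of 1.08 at the summit that follows.

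The next 2 NC-sh peaks lay 256 bp apart, with 1133 reads at a fold enrichment of 12.4 and 326 reads at 13.8. In METTL3-sh a single peak of 1367 bp, chr22:31372364-31373730, overlapped both and was longer than 97.1% of its list. It held 1223 reads at a fold enrichment of 19.4, and its summit was the same base as that of the third NC-sh peak. At that base the fold enrichment was 1.56 times higher in METTL3-sh, a log2 difference of 0.64, which is larger than that of the first peak. The ratio of summit reads there was 1.08, and the Input expectation was 29.0 (95% Poisson interval 19.4 to 41.6) in NC-sh and 22.0 (13.8 to 33.3) in METTL3-sh, intervals that overlap. The lower peak count of TUG1 in METTL3-sh thus came from 2 peaks listed as 1, and not from a stretch without a peak.

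The last TUG1 peak, chr22:31373972-31375106 in NC-sh, was the longest there at 1135 bp and held 1197 reads at a fold enrichment of 15.1. In METTL3-sh it was 1144 bp long, with 1309 reads at a fold enrichment of 14.0. Reads were in a ratio of 1.09 (1.01 to 1.18), or 1.21 (1.12 to 1.31) on the scaled coverage, and the log2 difference of the fold enrichment was −0.11. The log2 difference of MeRIP coverage was 0.28 at this peak and 0.28 in the median of all pairs. For summit reads the median over all pairs was 0.13. By −log10 q the peaks ran from 82.4 to 337 in the control and from 172 to 395 after knockdown. A further peak lay just outside the window, 0.751 and 0.716 kb before it, with 480 and 505 reads at fold enrichments of 12.7 and 11.5. In each list 1 running number was missing between the first and second TUG1 peaks. RefSeq places TUG1 next to MORC2.

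**Figure D3:**
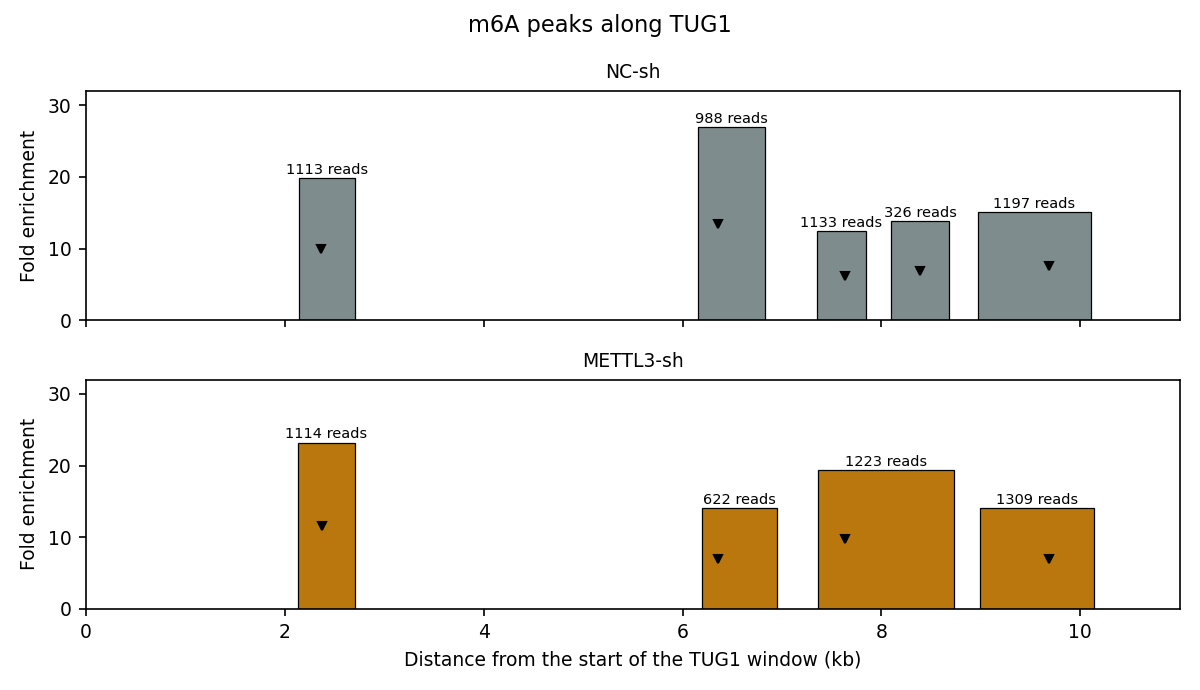
Fold enrichment (vertical) of the TUG1 peaks along the distance from the start of the TUG1 window in kb (horizontal), with bars spanning each peak, triangles at the summits and summit reads written beside them, for both conditions. The second peak stands at 27 in NC-sh against 14.0 in METTL3-sh, and the 2 NC-sh peaks that follow it are met by a single METTL3-sh peak at 19.4.

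Peaks of the 6 RNAs were mostly found in both conditions. All 8 peaks of the control shared at least 1 bp with a peak listed after knockdown, beside 76.2% of the NC-sh list. In METTL3-sh 7 of 8 did, beside 58.6% of that list. Of the control peaks 5 lie on TUG1, and 2 of these share at least 1 bp with the same METTL3-sh peak, so the 8 are not independent. Where the overlap had to reach 50% of both peaks, 6 of 8 were shared in each condition (75%), beside 68.7% and 52.9% of the lists. With summits within 100 bp, 7 of 8 were shared in each, beside 69.7% and 53.7%. Among NC-sh peaks with at least 114 reads, the lowest count of the 8, 87.9% were shared, against 76.2% without that minimum. Among METTL3-sh peaks with at least 30 reads, the lowest count of its 8, the share was 62.1%, against 58.6%.

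With 1-to-1 pairs, the fold enrichment was lower in METTL3-sh for 4 of 6 pairs and higher for 2. Of all 6863 pairs, 2820 were lower and 4043 higher. Past a 1.5-fold difference 2 of 6 were lower, KCNQ1OT1 and the second TUG1 peak, beside 12.8% of all 6863 pairs. Higher by that much were 0 of 6, beside 22.9%. With peaks paired by the nearest summit within 100 bp, which adds the third TUG1 summit, 1 of 7 was higher by that much, beside 23.1% of 6580 pairs, and 2 of 7 were lower, beside 12.9%. The median log2 difference was −0.14 over the 6 pairs and 0.13 over all pairs. The quartiles over all pairs, −0.27 and 0.54, give the spread of single pairs and not that of a median of 6. The direction over the 6 pairs depended on the measure, with a median of 0.13 by scaled coverage, −0.024 by summit reads and 0.11 by −log10 q. Over all pairs the medians were 0.28 for MeRIP coverage and 0.13 for summit reads, both above those of the 6 pairs. The Input expectation was 0.40 higher for the 6 pairs and 0.11 higher over all pairs. Of the 6 pairs 3 lie on TUG1 and share a transcript.

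**Figure D4:**
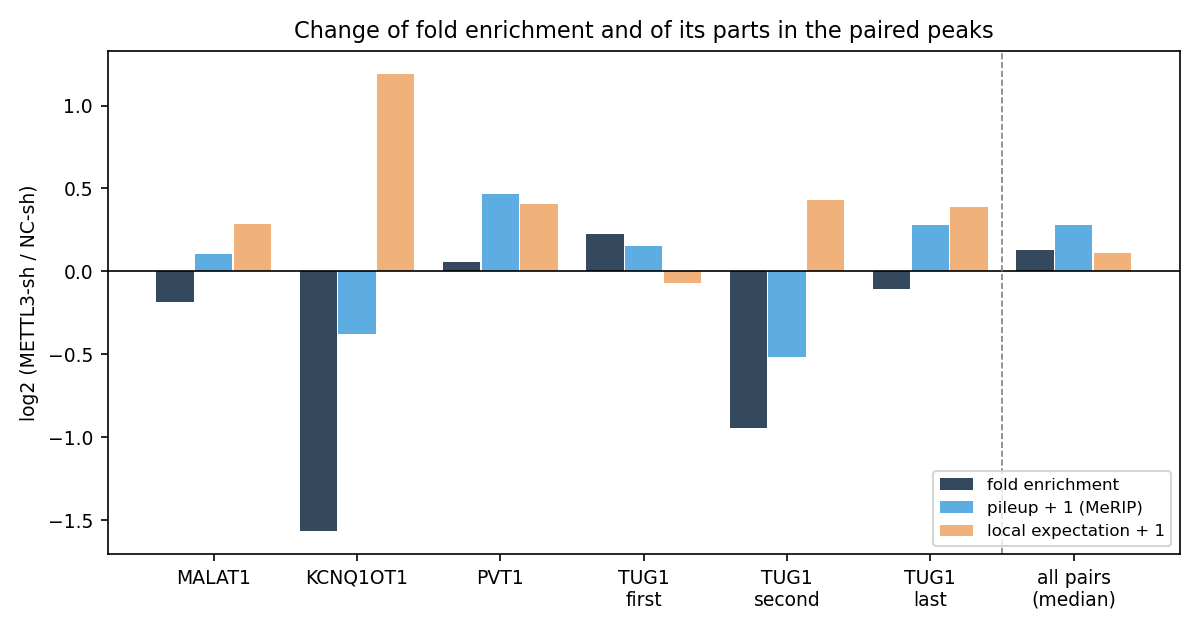
Log2 difference, METTL3-sh over NC-sh (vertical, 0 is no difference), of the fold enrichment, the MeRIP coverage and the Input expectation (1 was added to both coverages), shown as bars for each of the 6 pairs and for the median of all pairs along the horizontal axis. KCNQ1OT1 stands out at −1.57 in fold enrichment with 1.19 in Input expectation, followed by the second TUG1 peak at −0.94. The third TUG1 summit is not among the 1-to-1 pairs plotted.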

How the data were processed

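MeRIP and Input libraries of H1975 cells were processed by the authors, per the submitters' processing notes with bcl2fastq, TopHat2 2.0.13 and MACS2 2.1.0.20151222 on hg19. Settings are not given in the sources used here. The deposited lists give, for each peak, the signal (pileup coverage at the summit), the ratio (fold enrichment over Input) and −log10 p and −log10 q. Pileups were whole multiples of 0.327 (NC-sh) and 0.364 (METTL3-sh), within 0.01 of a step in 100% of peaks, and were divided by this step to give summit reads. The Input expectation was solved from pileup and fold enrichment with the pseudocount of 1, and lay within 0.02 of a whole number in 56.6% and 50.9% of peaks.

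The 6 RNAs, their windows and the comparisons were chosen with earlier results of these data known. Named peaks were all those of an RNA with at most 4 peaks in a library and otherwise those highest in −log10 q or fold enrichment or longest, with the largest fall and rise; the other TUG1 peaks were named after their values were seen. Peaks were paired where each overlapped only the other by at least 1 bp. With 1 library per group no test was made. Poisson intervals cover counting error only. Pairing, the median log2 difference and the step of the pileups were tested on simulated data, and the intervals were not part of that test. At the GRCh38.p14 positions of the 5 RNAs that do not overlap between builds, 0 and 1 peaks were listed, against 7 and 6 in the hg19 windows. RefSeq names and neighbours come from GRCh38.p14, and no coordinates were converted. An hg19 sequence, motifs and other long noncoding RNAs were not analysed here.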

Additional observations from a re-analysis of the deposited data

How the results depend on the processing

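Apart from the values below, peak counts and covered lengths stayed within 1.5 times those reported. Joining peaks within 1000 bp gave 5 NC-sh peaks in place of 8. Without TUG1, 3 NC-sh and 4 METTL3-sh peaks remained, covering 1219 bp in place of 4652 and 1392 bp in place of 5232. At a fold enrichment of at least 12, the share of METTL3-sh peaks overlapping NC-sh was 100% in place of 87.5%. Where each peak had to be covered to 50% by the other, the shares were 75% in NC-sh, in place of 100%, and 75% in METTL3-sh. The median log2 difference over the pairs ranged from −0.27 to 0.13 over 12 alternatives, 10 of them below 0; it was above 0 by pileup (0.13) and by −log10 q (0.11), so its direction is not settled. Without KCNQ1OT1 it was −0.11. Leaving out KCNQ1OT1 and grouping overlapping peaks were chosen after seeing the data. No paired analysis was possible because each group holds 1 library. Depth per library is unknown, and peaks under a fold enrichment of 6 are not in the lists.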
